A study of Mus musculus with 9 samples.

Results

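Cholesterol and fatty acids are built from the same starting material, cytosolic acetyl-CoA, and 32 genes of the routes that build them were followed in the colon of mice with and without colitis. The genes were chosen by symbol, as enzymes of cholesterol synthesis (18 genes), regulators and a carrier of sterols (4 genes) and enzymes of fatty acid synthesis, elongation and desaturation (10 genes). All 32 were found among the 27719 genes of the count table, and all 32 were among the 12566 genes that passed the filter on low counts.

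In cholesterol synthesis, acetyl-CoA is condensed to HMG-CoA and reduced to mevalonate, mevalonate is turned into isoprenoid diphosphates and then squalene, and squalene is closed into lanosterol and trimmed to cholesterol. The enzymes are known to be controlled together by the membrane-bound transcription factor SREBP2, which is released from the endoplasmic reticulum when sterols are scarce and held there by INSIG proteins when sterols are plentiful. Its relative SREBP1 is best known for driving fatty acid synthesis, and in the gut both routes supply membranes for an epithelium that is renewed continuously.

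Colon tissue of C57BL/6J mice was measured in 3 groups of 3 mice with 1 library per mouse. The control group drank distilled water. The DSS group drank 2.5% dextran sodium sulfate, a polymer that injures the colon epithelium and gives a colitis model, for 7 days. The DSS + EA group had the same DSS and also electroacupuncture (EA), a weak current passed through needles, at the ST36 point of each hind limb (2 Hz, 0.2 mA). Sessions of 30 minutes were given daily on 5 days, beginning after 5 days of modeling. The control and DSS mice were held for the same time without EA, so that needling without current was not among the groups compared, and the age of the mice is not given in the sources used here. Full-length cDNA was amplified by PCR and read on a Nanopore instrument, and the number of reads per gene was the measured value. The question addressed was how expression in the colon differed after DSS, and how it differed when EA was added.

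Library totals lay between 2627695 and 4235576 counts. Levels are given below as CPM, the count of a gene divided by the library total after TMM adjustment in edgeR. They compare 1 gene between mice, not genes with each other. Counts of markers called are to be read beside the shares of all genes tested. At an adjusted p under 0.05 in edgeR's quasi-likelihood test, 19.5% of these were lower and 21.5% higher in DSS than in control mice. In DSS + EA against DSS mice 17.2% were higher and 18.3% lower. Among 12 epithelial markers, 6 were lower in DSS than in control mice and 4 were higher in DSS + EA than in DSS mice. Their summed level lay between 11226 and 12631 CPM in control, 2558 and 10961 CPM in DSS and 10464 and 11414 CPM in DSS + EA mice, and DSS mouse 1 was at the upper end of the DSS range. In that mouse the marker Lgals4 alone gave 6431 CPM of the sum. Of the goblet cell markers, 8 of 8 were lower after DSS and 6 were higher in DSS + EA than in DSS mice, and of 10 absorptive colonocyte markers 8 were lower and 7 higher, in the same order. The summed neutrophil markers lay between 25.7 and 161 CPM in control, 4495 and 26912 CPM in DSS and 1230.0 and 1646 CPM in DSS + EA mice. Of 9 tested neutrophil markers, 9 were higher after DSS and 6 were lower in DSS + EA than in DSS mice. Macrophage markers (9 of 10 higher after DSS, then 7 lower), fibroblast markers (8 of 8 higher, then 6 lower) and smooth muscle markers (6 of 8 lower, then 1 higher) also moved. Of 10 cycling cell markers 0 passed the test after DSS and 3 were higher in DSS + EA than in DSS mice. Pancreatic acinar genes summed to between 457 and 24886 CPM in the DSS + EA mice, against at most 262 CPM in the other mice. In whole tissue, fewer cells of a type and less RNA per cell cannot be told apart.

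Most of the 18 listed genes of cholesterol synthesis were higher in the DSS + EA mice than in the DSS mice. Of the 18 enzymes, 14 passed edgeR's quasi-likelihood test at an adjusted p under 0.05 and all 14 were higher, against 17.2% of all genes tested that were higher and 18.3% that were lower in this comparison. The sign was positive for 18 of 18, with log2 fold changes between 0.03 and 1.82 and a median of 1.08, where the median over all genes tested was -0.02. In 15 of the 18, the lowest DSS + EA mouse was above the highest DSS mouse, a pattern seen in 24.2% of all genes tested, with the opposite pattern in 23.3%. Among these 15 the margin was narrowest in Mvk, Fdft1 and Tm7sf2. None of the 32 genes had a log2 fold change beyond 2.5 with P under 0.01, the thresholds set in the study's methods, which 6.41% of all genes tested passed.

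**Figure D1:**
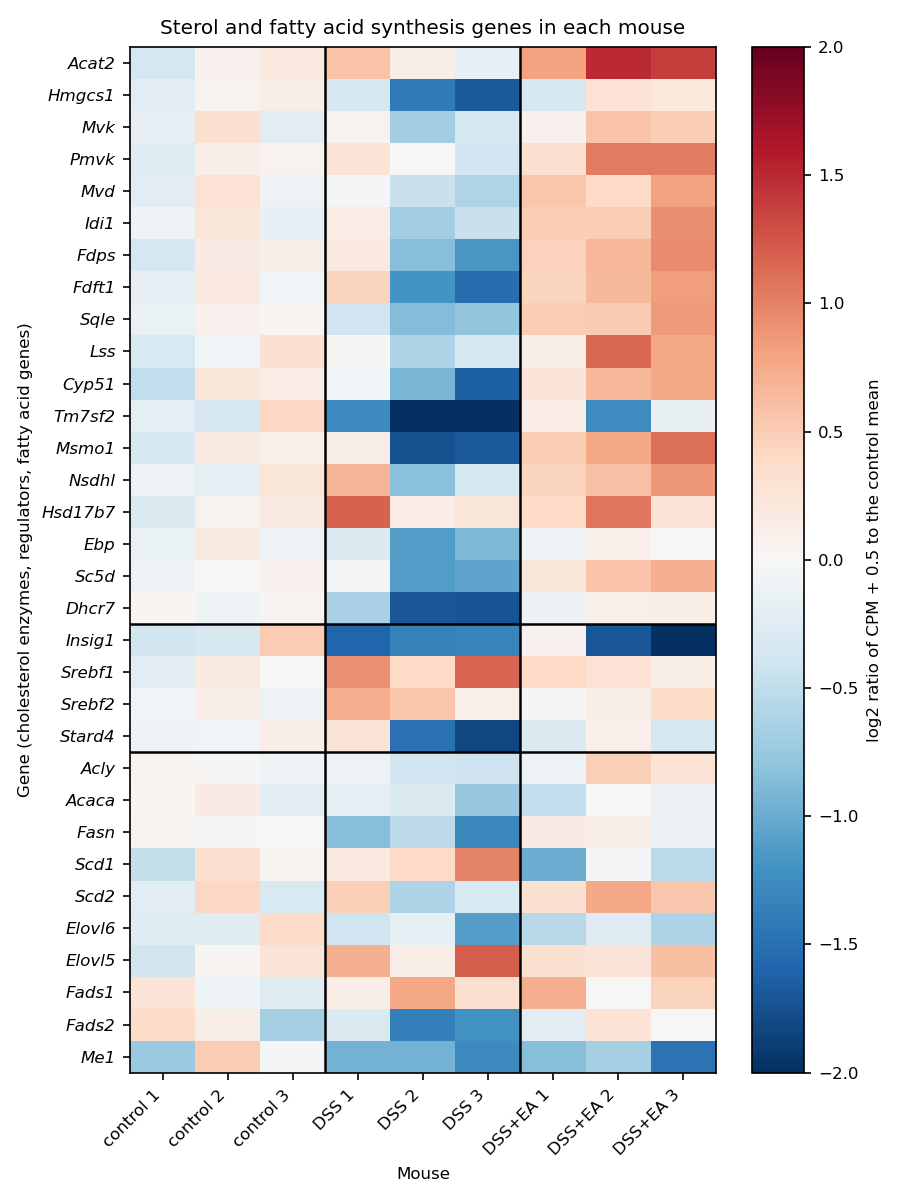
Level of the 32 genes (rows) in the 9 mice (columns), as the log2 ratio of CPM + 0.5 to the control mean, with values beyond 2 drawn in the end colours. The cholesterol block is mostly blue in DSS mice 2 and 3, near white in DSS mouse 1 and mostly red in the 3 DSS + EA mice.

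How many enzymes were called depended on single mice. Without DSS + EA mouse 3, 2 of the 18 were called (Sqle and Dhcr7), and 10.5% of all genes were then higher. Without DSS mouse 2, 5 were called, when 12.2% of all genes were higher. Without DSS mouse 3 or DSS + EA mouse 2, 8 each were called, with 14.1% and 12.7% of all genes higher. Without DSS mouse 1, 17 were called, when 22.9% of all genes were higher. Across the 16 alternative fits, of which 9 left out a mouse each, 17 or 18 of the 18 log2 fold changes were positive, and those of the 14 called enzymes stayed between 0.54 and 2.57.

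At the entry to the route is Acat2, the cytosolic thiolase that joins acetyl-CoA units (mm10 chr17:12942890-12960747, minus strand). Acat2 was at 15.5, 21.3 and 23.0 CPM in control, 29.9, 21.7 and 17.8 CPM in DSS and 35.0, 57.1 and 52.7 CPM in DSS + EA mice. The DSS + EA mice were above all other mice, and the control and DSS mice overlapped. Its log2 fold change in DSS + EA against DSS was 1.06 ± 0.28 (± SE throughout, edgeR's quasi-likelihood test, adjusted p = 0.0151). Hmgcs1 makes cytosolic HMG-CoA (chr13:119690379-119708260, plus strand). It was at 122, 148 and 154 CPM in control, 113, 52.8 and 43.7 CPM in DSS and 111, 172 and 163 CPM in DSS + EA mice. All DSS mice were below all control mice, while DSS + EA mouse 1 lay just under DSS mouse 1, so the DSS and DSS + EA groups overlapped. It fell after DSS (log2 fold change -1.02 ± 0.34, edgeR adjusted p = 0.0360) and was higher in DSS + EA than in DSS (1.10 ± 0.34, edgeR adjusted p = 0.0311).

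The next enzymes turn mevalonate into the activated isoprenoid units from which sterols are assembled. Pmvk, the second of the mevalonate kinases, was at 34.6, 44.9 and 42.9 CPM in control, 49.2, 40.8 and 31.2 CPM in DSS and 51.7, 84.0 and 83.4 CPM in DSS + EA mice. Mvd, which decarboxylates the product of Pmvk, was at 18.3, 26.3 and 19.9 CPM in control, 20.9, 15.6 and 14.0 CPM in DSS and 31.96, 28.4 and 38.1 CPM in DSS + EA mice. Both were higher in every DSS + EA mouse than in any other mouse, in Pmvk by a narrow margin between DSS + EA mouse 1 and DSS mouse 1. The log2 fold changes against DSS were 0.85 ± 0.25 for Pmvk (edgeR adjusted p = 0.0254) and 0.96 ± 0.24 for Mvd (edgeR adjusted p = 0.0125). Pmvk was called as higher in 10 of the 16 alternative fits and Mvd in 15. Idi1, the isomerase of isopentenyl diphosphate, was at 33.8, 41.9 and 31.8 CPM in control, 39.9, 21.9 and 26.2 CPM in DSS and 50.5, 50.4 and 68.8 CPM in DSS + EA mice. Fdps, which makes farnesyl diphosphate, was at 124, 176 and 171 CPM in control, 179, 86.7 and 69.6 CPM in DSS and 216, 248 and 302 CPM in DSS + EA mice. In these genes too the DSS + EA mice were above all others, by 0.95 ± 0.26 for Idi1 (edgeR adjusted p = 0.0184) and 1.19 ± 0.33 for Fdps (edgeR adjusted p = 0.0204) on the log2 scale against DSS. Mvk, the first kinase, and Fdft1, the squalene synthase that commits farnesyl diphosphate to sterols, did not pass the test. Their log2 fold changes were 0.71 ± 0.27 for Mvk (edgeR adjusted p = 0.0662) and 1.14 ± 0.44 for Fdft1 (edgeR adjusted p = 0.0655). Their DSS and DSS + EA mice did not overlap, by narrow margins between DSS mouse 1 and DSS + EA mouse 1. These mice were at 18.98 and 19.17 CPM in Mvk and 132.5 and 133.0 CPM in Fdft1. Fdft1 lay between 33.7 and 133 CPM in the DSS mice, a wider range than the 133 to 174 CPM of the DSS + EA mice.

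Squalene epoxidase, Sqle, catalyses the first oxygenation of the route, one of its rate-limiting steps (chr15:59315077-59331192, plus strand). It was at 35.6, 41.9 and 40.2 CPM in control, 29.6, 21.3 and 22.5 CPM in DSS and 56.0, 56.4 and 71.4 CPM in DSS + EA mice. The 3 groups did not overlap, with DSS lowest and DSS + EA highest. Its log2 fold change was -0.68 ± 0.20 after DSS (edgeR adjusted p = 0.0232) and 1.33 ± 0.20 in DSS + EA against DSS (edgeR adjusted p = 0.00151), the smallest adjusted p of the 32 genes in the second comparison. Lss, which closes squalene epoxide into lanosterol, was at 11.4, 13.6 and 17.6 CPM in control, 14.5, 9.13 and 11.2 CPM in DSS and 15.5, 32.1 and 24.7 CPM in DSS + EA mice. Its DSS + EA mice were above the DSS mice, by a narrow margin for mouse 1 (log2 fold change 1.06 ± 0.31, edgeR adjusted p = 0.0260).

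Lanosterol is then demethylated, reduced and rearranged. Cyp51, the lanosterol demethylase, was at 45.7, 76.8 and 71.3 CPM in control, 62.4, 34.1 and 20.6 CPM in DSS and 77.3, 103 and 110.1 CPM in DSS + EA mice. Msmo1, a methyl sterol oxidase, was at 96.8, 137 and 129 CPM in control, 132, 35.6 and 37.4 CPM in DSS and 173, 206 and 261 CPM in DSS + EA mice. In both, DSS mouse 1 was within the range of the control mice, the other DSS mice were below it, and every DSS + EA mouse was above every other mouse. Against DSS the log2 fold change was 1.31 ± 0.37 for Cyp51 (edgeR adjusted p = 0.0217) and 1.65 ± 0.46 for Msmo1 (edgeR adjusted p = 0.0209). Sc5d, a sterol desaturase late in the route, was at 56.2, 60.8 and 63.6 CPM in control, 58.5, 27.4 and 28.7 CPM in DSS and 70.3, 89.3 and 99.9 CPM in DSS + EA mice. The order of the mice was the same, and the log2 fold change against DSS was 1.18 ± 0.29 (edgeR adjusted p = 0.0126).

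Tm7sf2, Dhcr7 and Ebp differed from these late enzymes in that they were called in both comparisons. Tm7sf2 encodes a sterol reductase (chr19:6062821-6068373, minus strand) and was at 17.5, 16.0 and 26.8 CPM in control, 8.04, 3.69 and 2.18 CPM in DSS and 22.2, 8.22 and 18.1 CPM in DSS + EA mice. Dhcr7 encodes the reductase that yields cholesterol in the last step of one branch (chr7:143823145-143848410, plus strand). It was at 22.4, 20.6 and 22.6 CPM in control, 13.8, 6.30 and 6.24 CPM in DSS and 20.1, 23.5 and 23.8 CPM in DSS + EA mice. Ebp, a sterol isomerase, was at 81.1, 101 and 84.7 CPM in control, 74.0, 40.8 and 47.7 CPM in DSS and 83.7, 95.6 and 88.2 CPM in DSS + EA mice. Every DSS mouse was below every control and every DSS + EA mouse in these genes, and the control and DSS + EA mice overlapped. For Tm7sf2 the margin to DSS + EA was narrow. DSS mouse 1 had 25 counts (8.04 CPM) and DSS + EA mouse 2 had 22 counts (8.22 CPM), so the separation depends on the adjustment of library totals. The log2 fold changes after DSS were -2.12 ± 0.49 for Tm7sf2 (edgeR adjusted p = 0.00728), -1.33 ± 0.31 for Dhcr7 (edgeR adjusted p = 0.00736) and -0.72 ± 0.23 for Ebp (edgeR adjusted p = 0.0320). In DSS + EA against DSS they were 1.82 ± 0.49 (edgeR adjusted p = 0.0178), 1.36 ± 0.31 (edgeR adjusted p = 0.00837) and 0.72 ± 0.23 (edgeR adjusted p = 0.0363). The remaining enzymes of the demethylation step, Nsdhl (0.70 ± 0.36, edgeR adjusted p = 0.151) and Hsd17b7 (0.03 ± 0.35, edgeR adjusted p = 0.961), did not pass the test in DSS + EA against DSS. Both were at their highest DSS level in mouse 1 (33.8 CPM and 21.2 CPM). Sqle and Dhcr7 were called as higher in DSS + EA in all 16 alternative fits, and Tm7sf2 and Ebp in 13 and 7 of them. After DSS, Tm7sf2 and Dhcr7 were called as lower in all 16.

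**Figure D2:**
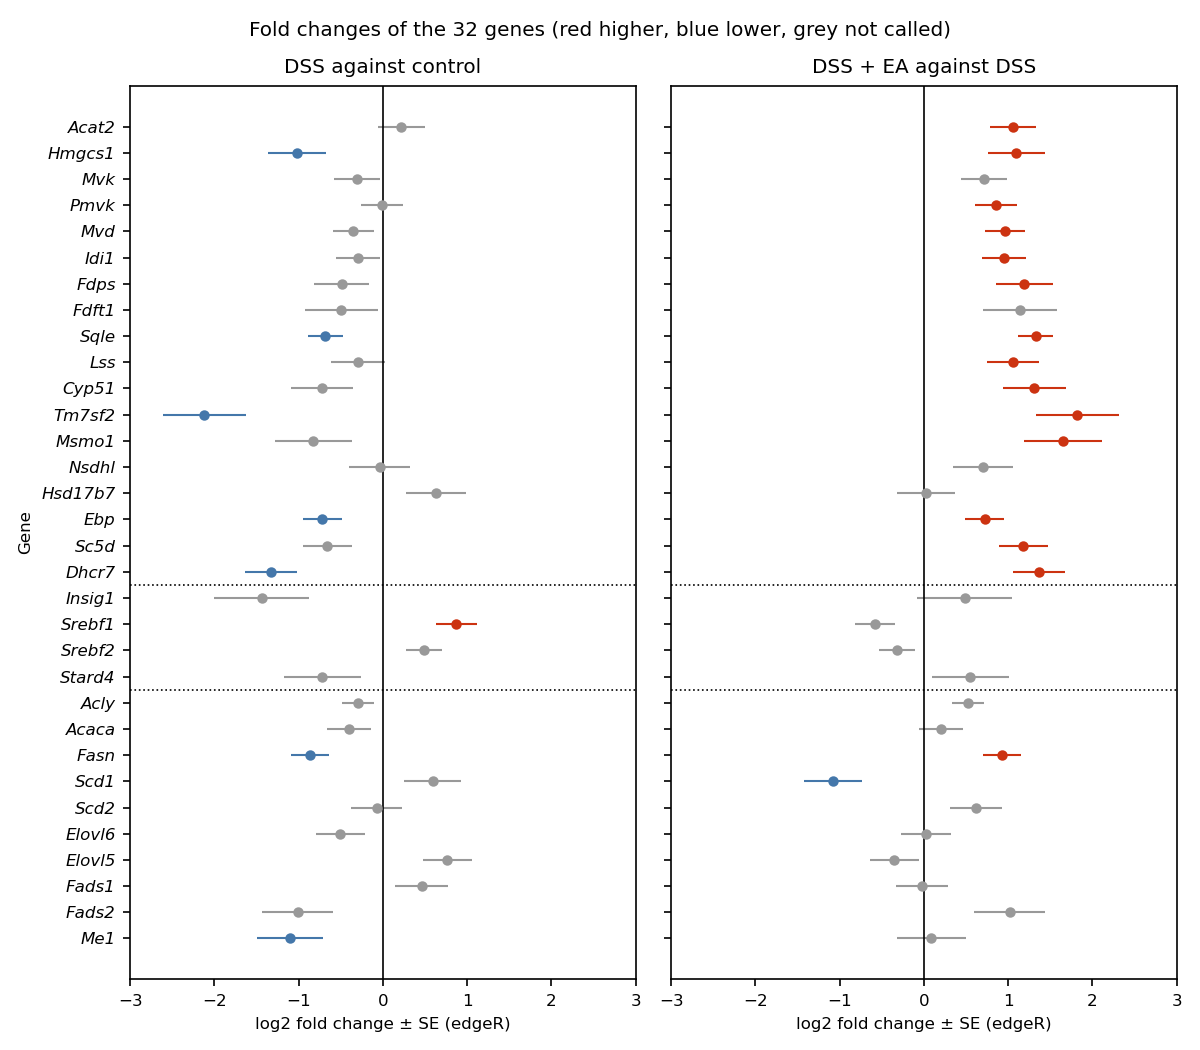
Log2 fold change ± SE from edgeR (horizontal axis) of each of the 32 genes in DSS against control (left) and DSS + EA against DSS (right), in red where called higher, blue where called lower and grey otherwise. In the right panel 14 of the 18 cholesterol enzymes are red and all 18 lie right of 0, and in the left panel 5 are blue.

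In DSS against control, 5 of the 18 cholesterol enzymes fell (Hmgcs1, Sqle, Tm7sf2, Ebp and Dhcr7) and 0 rose. In this comparison 16 of 18 log2 fold changes were negative, and the median was -0.49 with a range from -2.12 to 0.63. At an unadjusted P under 0.05 edgeR gave 6 lower and 0 higher enzymes, and DESeq2 gave 5 and 0 at an adjusted p under 0.05. Over all 32 genes 7 were lower and 1 was higher. Of all genes tested, 19.5% were lower, 21.5% were higher and 10.2% passed the fold-change thresholds, which 0 of the 32 passed, so the share of lower genes was near that of all genes. The DSS and control mice did not overlap in 5 of the 18 enzymes, all lower, against 25.9% of all genes that were lower without overlap and 26.2% that were higher. Without DSS mouse 1, 10 of the 18 enzymes were called as lower (23.5% of all genes), and without DSS mouse 2, DSS mouse 3, control mouse 2 or control mouse 3, 2 of them were (Tm7sf2 and Dhcr7). In these 4 fits 15.3%, 16.0%, 14.4% and 14.4% of all genes were lower, in that order. Leaving out control mouse 1 left 3 (14.4% of all genes). Over the 32 genes, 13 were lower without DSS mouse 1, 3 without control mouse 2, DSS mouse 2 or DSS mouse 3, and 4 without control mouse 3.

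Against the control mice the DSS + EA mice were higher in 1 enzyme by the test, Acat2 (1.28 ± 0.28, edgeR adjusted p = 0.0361). This compares with 3.00% of all genes that were higher, 0.637% that were lower and 2.08% past the fold-change thresholds, which 0 of the 32 passed. At an unadjusted P under 0.05, 6 of the 18 enzymes were higher and 0 lower. The sign was positive in 17 of 18 enzymes with a median of 0.65, and in 12 of 18 every DSS + EA mouse was above every control mouse, against 18.0% of all genes higher and 14.2% lower without overlap. The call of Acat2 was lost without any 1 of the control mice, without DSS + EA mouse 2 and without DSS + EA mouse 3, with log2 fold changes between 1.12 and 1.40 in those fits. Among the enzymes, the values nearest to the control level were those of Ebp (0.00 ± 0.23), Dhcr7 (0.04 ± 0.29) and Hmgcs1 (0.08 ± 0.33). The comparisons share mice (DSS mice in 2 of them, control mice in 2, DSS + EA mice in 2), so their values stand side by side and are not independent of each other.

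The 3 DSS mice were unlike each other, and DSS mouse 1 stood apart in the cholesterol enzymes and in the summed epithelial markers. DSS mouse 1 had the highest level of the DSS mice in 18 of 18 cholesterol enzymes. The summed level of the 18 enzymes was 1031 CPM in DSS mouse 1, 493 CPM in DSS mouse 2 and 454 CPM in DSS mouse 3, and it was 845 to 1088 CPM in control and 1208 to 1655 CPM in DSS + EA mice. By this sum DSS mouse 1 was within the control range, the other DSS mice were below it and the DSS + EA mice were above it. Single enzymes of DSS mouse 1 went both ways, with 5 of the 18 below and 6 above every control mouse. The median log2 ratio of the 18 enzymes to the control mean was 0.05, -0.86 and -0.84 in DSS mice 1, 2 and 3, and 0.37, 0.58 and 0.79 in DSS + EA mice 1, 2 and 3. In DSS mice 2 and 3, 15 and 16 of the 18 were below every control mouse, and in DSS + EA mice 1, 2 and 3, 12, 16 and 16 were above every control mouse. The 12 epithelial markers summed to 10961, 4638 and 2558 CPM in DSS mice 1, 2 and 3, and the neutrophil markers to 4495, 23335 and 26912 CPM. Goblet cell markers summed to 9015, 3511 and 1148 CPM in these mice (control 25249 to 40372 CPM). Absorptive colonocyte markers summed to 5486, 1468 and 843 CPM (control 11867 to 31545 CPM). In both sums DSS mouse 1 was below all control mice, unlike in the sum of the cholesterol enzymes. In DSS mouse 1, Lgals4 alone gave 6431 CPM of the epithelial sum, above its 5171 to 5402 CPM in control mice. In 9 of the 12 epithelial markers every DSS mouse, mouse 1 included, was below every control mouse, a pattern seen in 25.9% of all genes tested. Vil1 (70.8 CPM in DSS mouse 1, control 138 to 173 CPM) and Krt20 (534 CPM, control 787 to 1088 CPM) were among these 9. Besides Lgals4, only Cdh1 (178 CPM, control 133 to 153 CPM) was above all control mice in DSS mouse 1. Among the DSS + EA mice, mouse 1 was the lowest in 14 of the 18 enzymes. Pancreatic acinar genes, of which 9 of 9 tested were higher in DSS + EA than in DSS mice, summed to 457, 24886 and 12304 CPM in DSS + EA mice 1, 2 and 3. The part of this pancreatic RNA in the values was not tested.

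Set against the epithelial markers, the order of the groups was not the same. Per 1000 counts on the 12 epithelial markers, the control mice had 74.2, 96.9 and 82.6 counts on the cholesterol enzymes, the DSS mice 94.1, 106 and 178, and the DSS + EA mice 106, 142 and 148. On this scale the control and DSS mice overlapped, the DSS and DSS + EA mice overlapped, and the DSS + EA mice were above all control mice. This scale leans on 1 marker, Lgals4, the largest part of the epithelial counts. Lgals4 was at 5171, 5343 and 5402 CPM in control and 6431, 2119 and 1473 CPM in DSS mice. In DSS + EA mice it was at 5039, 5496 and 5313 CPM. It held 20347 of 44798, 16070 of 33763 and 14095 of 32960 epithelial counts in control mice. In DSS mice it held 19991 of 34072, 9754 of 21345 and 4721 of 8195. With these counts left out, every DSS mouse is above every control mouse on this scale. The overlap of control and DSS mice therefore rests on Lgals4. DSS mouse 3, with the fewest epithelial counts, had the highest ratio. For the 10 fatty acid genes the ratio to all 12 markers was 37.8, 44.0 and 33.4 in control and 42.6, 75.1 and 147 in DSS mice. It was 39.3, 58.0 and 48.0 in DSS + EA mice, and the groups overlapped. Without Lgals4, the DSS mice are above all control mice in this ratio too, while the DSS and DSS + EA mice still overlap. The part of epithelial content in the group differences was not tested.

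**Figure D3:**
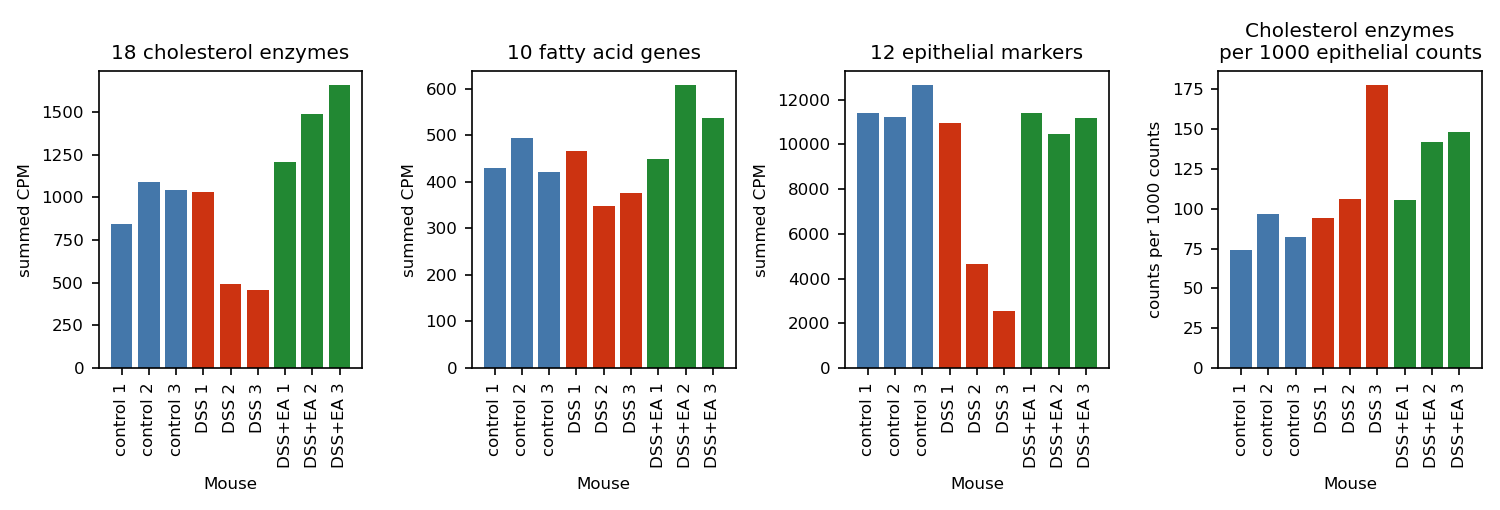
Summed CPM per mouse (bars) of 18 cholesterol enzymes, 10 fatty acid genes and 12 epithelial markers, and cholesterol enzyme counts per 1000 epithelial marker counts in the last panel (control blue, DSS red, DSS + EA green). DSS mice 2 and 3 are low in the panels of cholesterol enzymes and epithelial markers, while DSS mouse 3 has the highest bar (178) in the last.

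Promoter sequences of the members were read beside these values. A promoter was found in RefSeq (GRCm38.p6, 250 bases before to 50 bases after a transcription start) for 25 of the 32 members, and these 25 have 31 promoters. The upstream 250 bases are printed below for 3 enzymes that differed between DSS + EA and DSS, Hmgcs1 (chr13:119690101-119690350, plus strand), Msmo1 (chr8:64733579-64733828, minus strand) and Cyp51 (chr5:4104698-4104947, minus strand), and for Acat2 (chr17:12960726-12960975, minus strand), in which none of the letters searched were found. They run 5′ to 3′ on the strand of the gene. Capitals mark CCAAT, the box bound by NF-Y, on either strand (ATTGG on the other). Capitals also mark TCACNCCAC, a form of the sterol regulatory element, to which SREBP binds.
Hmgcs1: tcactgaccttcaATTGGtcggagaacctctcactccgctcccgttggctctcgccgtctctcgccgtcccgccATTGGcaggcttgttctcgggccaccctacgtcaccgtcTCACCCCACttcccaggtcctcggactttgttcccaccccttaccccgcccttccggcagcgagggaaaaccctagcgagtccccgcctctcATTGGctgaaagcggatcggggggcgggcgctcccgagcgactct
Msmo1: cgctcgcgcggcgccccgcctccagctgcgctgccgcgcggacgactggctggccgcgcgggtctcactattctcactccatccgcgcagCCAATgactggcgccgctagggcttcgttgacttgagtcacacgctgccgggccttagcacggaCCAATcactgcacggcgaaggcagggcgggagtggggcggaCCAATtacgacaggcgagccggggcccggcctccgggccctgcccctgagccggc
Cyp51: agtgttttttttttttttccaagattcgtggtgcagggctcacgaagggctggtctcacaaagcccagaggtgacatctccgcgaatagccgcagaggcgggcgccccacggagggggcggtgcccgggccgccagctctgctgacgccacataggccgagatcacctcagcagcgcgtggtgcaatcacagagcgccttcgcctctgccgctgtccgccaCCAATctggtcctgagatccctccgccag
Acat2: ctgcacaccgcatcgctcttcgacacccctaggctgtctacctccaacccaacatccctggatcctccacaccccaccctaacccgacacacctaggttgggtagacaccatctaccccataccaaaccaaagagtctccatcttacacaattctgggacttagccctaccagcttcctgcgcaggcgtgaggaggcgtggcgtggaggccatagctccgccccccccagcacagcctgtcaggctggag

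Hmgcs1 was the 1 member with the letters TCACNCCAC, as TCACCCCAC beginning 137 bases before the start site. By promoter, 3.23% of the members' 31 promoters and 1.24% of all 32851 promoters hold such letters on either strand. CCAAT was in a promoter of 21 of the 25 members, 14 of the 15 cholesterol enzymes, 3 of the 3 regulators and 4 of the 7 fatty acid genes. By promoter it was in 71.0% of the members' promoters and 37.4% of all promoters. Msmo1 holds it at 3 places and Cyp51 at 1 place. The E-box CACGTG was in 5 members (Hsd17b7, Sc5d, Dhcr7, Insig1 and Elovl5). By promoter it was in 16.1% of the members' promoters and 7.15% of all promoters. None of these motifs share bases in the promoters printed. Only exact matches were searched, so a site with other letters would be missed, and a promoter without a match is not shown to lack an SREBP site. A match of letters is a description of the sequence, and binding was not measured.

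Of the 4 regulator and carrier genes, 1 was higher after DSS by edgeR's test and 0 were lower, where 21.5% of all genes tested were higher and 19.5% lower. In the same comparison 2 were higher and 1 was lower at an unadjusted P under 0.05, and DESeq2 called 1 higher and 1 lower (Insig1). In DSS + EA against DSS 0 passed edgeR's test, against 17.2% of all genes higher and 18.3% lower. There 1 was lower and 0 higher at an unadjusted P under 0.05, and DESeq2 called 0. Srebf1, which encodes SREBP1 (chr11:60199089-60222581, minus strand), was at 14.0, 18.6 and 16.5 CPM in control, 31.2, 21.7 and 37.1 CPM in DSS and 21.6, 20.2 and 18.1 CPM in DSS + EA mice. Every DSS mouse was above every control mouse, and every DSS + EA mouse was below every DSS mouse, by a narrow margin for DSS + EA mouse 1. Srebf1 rose after DSS (log2 fold change 0.87 ± 0.24, edgeR adjusted p = 0.0168), a call that was lost without control mouse 1 (0.73), control mouse 3 (0.85) or DSS mouse 3 (0.69). Its value of -0.58 ± 0.24 in DSS + EA against DSS did not pass the test (edgeR adjusted p = 0.0817). Srebf2, which encodes SREBP2, was at 29.7, 33.9 and 28.7 CPM in control, 51.2, 45.6 and 33.1 CPM in DSS and 30.4, 33.6 and 39.7 CPM in DSS + EA mice. Its groups overlapped in both comparisons, with DSS mouse 3 among the control values. The log2 fold changes were 0.49 ± 0.21 after DSS (edgeR adjusted p = 0.0934) and -0.32 ± 0.21 in DSS + EA against DSS (edgeR adjusted p = 0.256). The first was called as higher in 1 of the 16 alternative fits, the one without DSS mouse 3, and the second in 0. These are levels of RNA, and SREBP proteins are controlled by cleavage, which was not measured.

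Insig1, itself a known SREBP target whose protein retains SREBP in the endoplasmic reticulum, was at 21.6, 22.3 and 39.9 CPM in control, 9.01, 10.6 and 10.9 CPM in DSS and 29.5, 8.22 and 4.76 CPM in DSS + EA mice. The 3 DSS mice lay close together and below all control mice, while DSS + EA mouse 1 was within the control range and DSS + EA mice 2 and 3 were below the DSS mice. Neither the log2 fold change after DSS (-1.44 ± 0.56, edgeR adjusted p = 0.0630) nor that in DSS + EA against DSS (0.48 ± 0.57, edgeR adjusted p = 0.530) passed the test. The first was called as lower in 5 of the 16 alternative fits, namely DESeq2, no filter on low counts, only the 2 groups compared, and the fits without DSS + EA mouse 1 or DSS + EA mouse 3. Its value lay between -1.64 and -1.13 over the 16, with adjusted p up to 0.185. Without DSS + EA mouse 1 the second value was -0.68. The DSS + EA mice with the lowest Insig1, mice 2 and 3, were those with the higher summed level of the cholesterol enzymes. Stard4, a cytosolic carrier of cholesterol, was at 107, 109 and 125 CPM in control, 136, 40.2 and 31.8 CPM in DSS and 92.5, 122 and 89.5 CPM in DSS + EA mice. Like most enzymes it was highest in DSS mouse 1 and low in the other DSS mice, and it did not pass the test in either comparison (edgeR adjusted p = 0.235 and 0.369). Without DSS mouse 1 it was called as lower after DSS (-1.68).

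**Figure D4:**
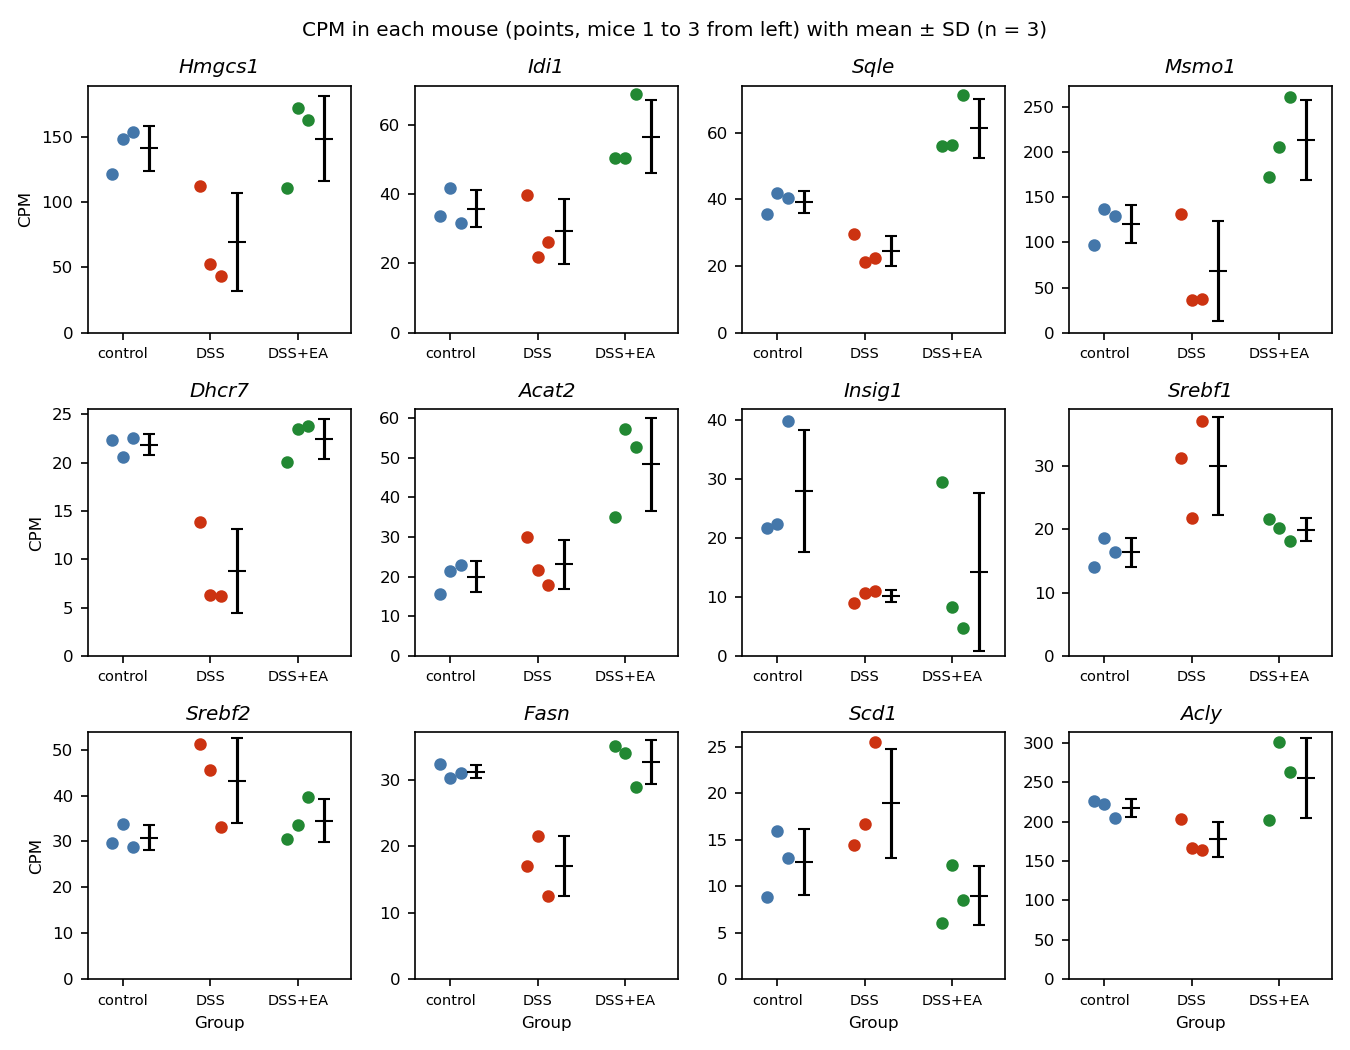
CPM (vertical axis, from 0) of 12 of the genes in each mouse, with points for mice 1 to 3 from left to right in each group and the mean ± SD of 3 mice beside them. Sqle, Msmo1, Idi1 and Acat2 are highest in the DSS + EA mice, Srebf1 is highest in the DSS mice, and Insig1 falls into 1 high and 2 low DSS + EA mice.

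Of the 10 fatty acid synthesis genes, 2 fell after DSS (Fasn and Me1) and 0 rose, a share near the 19.5% of all genes that were lower, where 21.5% were higher. At an unadjusted P under 0.05, 3 were lower and 1 was higher, and DESeq2 called 2 and 0. The median log2 fold change was -0.35. In DSS + EA against DSS 1 was higher (Fasn) and 1 lower (Scd1), against 17.2% and 18.3% of all genes. The median was 0.14 and 7 of 10 were positive. Their summed level was 422 to 494 CPM in control, 349 to 467 CPM in DSS and 449 to 607 CPM in DSS + EA mice, and the groups overlapped. Among adipocyte markers, which would mark fat attached to the colon, the summed level lay between 118 and 404 CPM in control, 162 and 229 CPM in DSS and 163 and 200 CPM in DSS + EA mice. Of 8 tested, 5 were lower and 1 higher after DSS, and 2 were higher and 1 lower in DSS + EA against DSS. Car3, a carbonic anhydrase abundant in fat, was at 24.4, 141 and 107 CPM in control, 1.61, 5.00 and 7.18 CPM in DSS and 30.4, 34.0 and 32.7 CPM in DSS + EA mice. Adipoq, the fat cell hormone adiponectin, was at 3.05, 25.3 and 16.5 CPM in control, 0.643, 0.652 and 4.06 CPM in DSS and 3.96, 7.10 and 5.39 CPM in DSS + EA mice and fell after DSS (log2 fold change -3.08 ± 0.83, edgeR adjusted p = 0.0146). Car3 fell after DSS (-4.28 ± 0.65, edgeR adjusted p = 0.000894) and was higher in DSS + EA than in DSS (2.80 ± 0.64, edgeR adjusted p = 0.00866). Cidec, Retn and Cfd also fell after DSS, while Fabp4, which endothelial cells and macrophages express too, rose and made up 115, 135 and 134 CPM of the sum in DSS mice 1, 2 and 3. These genes of the list were named after their values were seen. Lep and Plin1 had 0 to 2 counts a mouse. Their part in the values of the fatty acid genes was not tested.

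Fasn encodes the fatty acid synthase that makes palmitate (chr11:120805846-120824547, minus strand). It was at 32.3, 30.3 and 31.0 CPM in control, 17.1, 21.5 and 12.5 CPM in DSS and 35.0, 34.0 and 28.9 CPM in DSS + EA mice. Every DSS mouse was below every control and every DSS + EA mouse, and control and DSS + EA mice overlapped. It fell after DSS (-0.87 ± 0.23, edgeR adjusted p = 0.0129) and was higher in DSS + EA than in DSS (0.93 ± 0.23, edgeR adjusted p = 0.0115), and both calls held in all 16 alternative fits. DSS mouse 1, the highest DSS mouse in every cholesterol enzyme, was at 17.1 CPM in Fasn, between the other DSS mice. Acly, the citrate lyase that provides cytosolic acetyl-CoA for both routes, had log2 fold changes of -0.29 ± 0.19 and 0.52 ± 0.19 (edgeR adjusted p = 0.248 and 0.0570). Those of Acaca, the carboxylase that makes malonyl-CoA, were -0.40 ± 0.26 and 0.20 ± 0.26 (edgeR adjusted p = 0.241 and 0.577). Me1, the malic enzyme that supplies NADPH, was at 5.59, 14.0 and 9.58 CPM in control, 4.83, 4.78 and 3.74 CPM in DSS and 5.17, 5.98 and 3.17 CPM in DSS + EA mice. Its DSS mice were below all control mice, and its DSS and DSS + EA mice overlapped. Me1 fell after DSS (-1.10 ± 0.39, edgeR adjusted p = 0.0436), a call that held in 3 of the 9 fits without 1 mouse (control mouse 1, DSS + EA mouse 2 or DSS + EA mouse 3). It had a value of 0.09 ± 0.41 in DSS + EA against DSS (edgeR adjusted p = 0.883).

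Scd1, the stearoyl-CoA desaturase that makes monounsaturated fatty acids (chr19:44394455-44407879, minus strand), was lower with EA. It was at 8.89, 16.0 and 13.0 CPM in control, 14.5, 16.7 and 25.6 CPM in DSS and 6.09, 12.3 and 8.56 CPM in DSS + EA mice. Every DSS + EA mouse was below every DSS mouse, and the control mice overlapped both groups. Its log2 fold change in DSS + EA against DSS was -1.08 ± 0.35 (edgeR adjusted p = 0.0353). The call was lost without control mouse 3, DSS mouse 2, DSS mouse 3, DSS + EA mouse 1 or DSS + EA mouse 3, with values between -1.17 and -0.80. Its neighbour on chromosome 19, Scd2, had a log2 fold change of 0.62 ± 0.31 (edgeR adjusted p = 0.136), and since the copies are similar, reads may have been divided between them. The elongases Elovl5 and Elovl6 and the desaturases Fads1 and Fads2, which lengthen and desaturate fatty acids, did not pass the test in either comparison. Their log2 fold changes lay between -1.01 (Fads2) and 0.77 (Elovl5) after DSS and between -0.35 (Elovl5) and 1.02 (Fads2) in DSS + EA against DSS. Fads2 had 2.17 to 8.39 CPM, where 3 counts correspond to 0.652 to 1.15 CPM and the SE of its log2 fold change in the second comparison was 0.42.

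Genes next to these routes were counted in 6 further lists. Of all genes tested, 19.5% were lower and 21.5% higher after DSS. In DSS + EA against DSS, 17.2% were higher and 18.3% lower. The counts of all 6 lists are to be read beside these shares. Of 11 other genes of sterol and isoprenoid synthesis, 5 were lower and 1 higher after DSS, and 5 higher and 1 lower in DSS + EA against DSS. Pdss2, a subunit of the enzyme that makes the ubiquinone side chain from isoprenoids, was lower after DSS (log2 fold change -1.71 ± 0.28, edgeR adjusted p = 0.00139) and higher in DSS + EA than in DSS (1.80 ± 0.28, edgeR adjusted p = 0.00167). Nus1, needed for dolichol synthesis, was higher after DSS and lower in DSS + EA than in DSS (1.69 and -1.49), with DSS mouse 2 at 102 CPM and the other DSS mice at 37.0 and 26.8 CPM. Of 15 tested genes of SREBP processing and sterol sensing, 3 were lower and 1 higher after DSS, and 3 were higher and 3 lower in DSS + EA against DSS. Nr1h3, which encodes the oxysterol receptor LXR alpha, was at 41.2, 47.5 and 44.5 CPM in control, 15.4, 10.4 and 12.5 CPM in DSS and 49.6, 50.1 and 36.5 CPM in DSS + EA mice. All DSS mice were below all others (-1.80 ± 0.22 after DSS, edgeR adjusted p = 0.000313, and 1.83 ± 0.22 in DSS + EA against DSS, edgeR adjusted p = 0.000598). Npc1, which moves cholesterol out of lysosomes, was higher after DSS (1.04) and lower in DSS + EA than in DSS (-1.70).

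Of 8 tested genes of cholesterol export, esterification and absorption, 3 were higher after DSS, and 3 were lower in DSS + EA against DSS. Ch25h, which makes an oxysterol known to hold back SREBP, was at 1.02, 0.997 and 0.383 CPM in control, 11.6, 17.4 and 17.8 CPM in DSS and 3.35, 1.49 and 2.85 CPM in DSS + EA mice. The 3 groups did not overlap, with DSS mice highest (4.17 ± 0.43 after DSS, edgeR adjusted p = 0.000126, and -2.57 ± 0.37 in DSS + EA against DSS, edgeR adjusted p = 0.00114), although control values rest on 1 to 4 counts a mouse. Of 13 tested genes that supply acetyl-CoA, malonyl-CoA and NADPH, 4 were lower and 1 higher after DSS (G6pdx, which makes NADPH, 0.93) and 4 were higher in DSS + EA against DSS. Thrsp, linked to the induction of lipogenic genes, passed the test in both and had 19 to 26 counts in control, 1 to 3 counts in DSS and 16 to 18 counts in DSS + EA mice. Of 12 tested genes of other elongation, desaturation and acyl-CoA enzymes, 2 were lower (such as the elongase Elovl7, -2.01) and 1 higher (the acyl-CoA synthetase Acsl4, 3.13) after DSS, and 2 were higher (Elovl7 1.91) and 1 lower (Acsl4 -2.11) in DSS + EA against DSS. Of 14 tested genes of glycerolipid synthesis and lipid droplets, 3 were lower after DSS (such as the acyltransferase Agpat1, -1.39), and 3 were higher in DSS + EA against DSS (Agpat1 1.13).

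Several members share exon bases with another gene, and the use of strand in counting is not given in the sources used here. Fdft1 shares 774 exon bases with Ctsb on the opposite strand, and Fdps 1124 with Gm43738 and Tm7sf2 532 with Vps51 on the same strand. Hmgcs1 (557), Idi1 (323), Lss (381), Cyp51 (166) and Srebf1 (109) share exon bases with genes on the opposite strand in GENCODE. Reads of these genes could have been assigned to the partner or taken from it.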

How the data were processed

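Colon RNA of 9 mice was sequenced, and the authors deposited raw counts per gene for each mouse, per the labels from Nanopore cDNA reads and the build mm10; the aligner, counter, annotation and use of strand are not given in the sources used here. Of 27733 lines of the table, 14 held no counts and were skipped. The 32 members and all lists were chosen with earlier results of these data known, and a few genes of the route are not reported here.

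One model of group was fitted to all 9 libraries with edgeR 4.0.16 under R 4.3.3, using TMM factors, filterByExpr and a prior count of 0.125. Its quasi-likelihood p-values were adjusted by Benjamini-Hochberg over 12566 genes and called under 0.05. The SE is the absolute log2 fold change divided by the square root of F. The scripts were tested on simulated data. The study's thresholds (log2 fold change beyond 2.5, P under 0.01) served as a second rule. Figures and annotation used Python 3.11.15, pandas 2.3.3 and matplotlib 3.10.9. With totals of 2627695 to 4235576 counts, 3 counts are 0.652 to 1.15 CPM, which covers counting error only, since PCR copies were not told apart.

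All members are named, with values in every mouse for those called in the first 2 comparisons and for the regulators. From each other list the gene of smallest P in each direction was named, if called and with at least 30 counts. Alternatives were DESeq2 1.42.0, RLE normalization, library totals, the replicate number as a block, no filter, a minimum mean of 20 counts, separate fits of 2 groups, an adjusted p under 0.01 and each mouse left out. Exon overlaps come from GENCODE M21. Replicates are separate mice of 1 group.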

Additional observations from a re-analysis of the deposited data

How the results depend on the processing

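DESeq2, RLE normalization and the absence of a filter kept each count of called members within 1.5 times its value; in all fits Fads2 was tested except with a mean of at least 20 counts. Members higher in DSS against control (1) were 2 with library totals, 0 at an adjusted p under 0.01 and 0 to 2 with a mouse left out. Members lower (7) were 4 with only the 2 groups compared, 4 with the replicate number as a block, 2 at 0.01 and 3 to 13 with a mouse left out. In DSS + EA against DSS, members higher (15) were 2 at 0.01 and 3 to 22 with a mouse left out, members lower (1) were 2 with library totals, 0 with only the 2 groups, 0 at 0.01 and 0 to 1 with a mouse left out, and the median log2 fold change (0.79) was 0.65 to 1.11. Members past the fold-change thresholds (0) were 0 to 1 in these comparisons with a mouse left out. In DSS + EA against control, members higher (1) were 6 with only the 2 groups (790 of all genes against 377), 0 with the block, 0 at 0.01 and 0 to 2 with a mouse left out, and members lower (0) were 0 to 1.

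Small values changed sign. Pmvk after DSS (-0.01) was 0.036 with library totals, 0.0057 with a mean of at least 20 counts, 0.0092 with 2 groups, 0.0033 with the block and -0.20 to 0.14 with a mouse left out. In DSS + EA against DSS, Hsd17b7 (0.03) was -0.040 with library totals, -0.038 with a mean of at least 20 counts and -0.24 to 0.46 with a mouse left out, Elovl6 (0.03) -0.060, -0.044 and -0.20 to 0.24 likewise, and Fads1 (-0.02) 0.059 with no filter and -0.23 to 0.19. With a mouse left out, Acat2 (-0.026 to 0.38), Nsdhl (-0.62 to 0.27) and Scd2 (-0.48 to 0.16) after DSS and Insig1 (-0.68 to 0.88) and Me1 (-0.060 to 0.30) in DSS + EA against DSS changed sign. The cause was not tested.

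Same-numbered mice are different animals, and whether they shared a batch is not given in the sources used here. Their deviations correlated at -0.16 to 0.10 over 9 pairs, against -0.20 to 0.25 over 18 other pairs. With so few mice, these values cannot exclude a shared batch. With the replicate number as a block, 11 members were higher and 1 lower in DSS + EA against DSS. Depth sets a floor of 3 counts, 0.652 to 1.15 CPM by mouse, and all 32 members were above it in their group means.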
